A study of Mus musculus with 10 samples.

Results

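The genes that make, store and break down fat were followed through the mammary gland of mice fed different amounts of folic acid (FA). They are 40 genes chosen by name for their place on the route from glucose to stored triglyceride and back to free fatty acids, and each symbol matched 1 of the 46983 Ensembl genes in the count files. All 40 were among the 15610 genes that passed the filter on low counts. The lowest count of a member in any library was 189 reads, for *Fads2* in HFA replicate 5. By role they comprise 9 genes of glucose entry and fatty acid synthesis, 6 of elongation and desaturation, 5 transcription factors and their regulators, 7 of fatty acid activation and triglyceride assembly, 4 of uptake and binding, 3 of the lipid droplet coat and 6 of lipolysis.

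RNA came from whole right thoracic mammary fat pads of virgin female C57BL/6 mice at postnatal day 130, with no engineered allele named for any group, and gave 10 libraries. The control group (CFA, n = 5) had eaten a diet with 1 mg FA/kg and the high FA group (HFA, n = 5) a diet with 5 mg FA/kg. Both groups then ate the same maintenance diet for 4 weeks and were fasted for some hours before the tissue was taken. A fat pad of a virgin mouse is mostly white adipocytes around a sparse duct tree, so each value is a mixture of cells, and fewer cells of a type and less RNA per cell cannot be told apart.

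White adipocytes take up glucose, turn the citrate that leaves the mitochondria into acetyl-CoA, and build fatty acids that are then elongated and desaturated. They also take fatty acids from circulating lipoproteins, join them to a glycerol backbone and keep the triglyceride in a coated droplet, from which lipases release it in fasting. Insulin and the factors encoded by *Srebf1* and *Mlxipl* raise the synthesis genes in the fed state, and *Pparg* and *Cebpa* hold the adipocyte programme.

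The 10 libraries held 7672199 to 14829291 reads counted on genes. *Ighd*, the delta heavy chain of naive B cells, stood at 105, 290.0 and 895 counts per 1000000 counted reads (CPM) in CFA replicates 2 and 5 and HFA replicate 5, and at 0.914 to 1.64 CPM in the other 7, so values are given with and without these 3 libraries. The summed level of 9 B cell markers was 487, 1311 and 3846 CPM in the same 3 libraries and at most 7.69 CPM elsewhere. HFA replicate 5 stood apart further, with the highest value of all libraries in 31.8% and the lowest in 28.3% of all genes tested. The 10 adipocyte markers were read in every library, with a summed level of 11497 to 20260.0 CPM in CFA and 9195 to 25600.4 CPM in HFA, the lowest in HFA replicate 5. They are led by *Car3*, *Cfd*, the secreted protease adipsin, and *Adipoq*, the hormone adiponectin. The summed level of 8 skeletal muscle markers lay above that of the adipocyte markers in every library but CFA replicate 2 and HFA replicate 5. It ran from 846 CPM in HFA replicate 5 to 68275 CPM in HFA replicate 4.

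Per length of annotated exon, the adipocyte desaturase *Scd1* stood above every other member, at a mean of 8091 CPM per kb (RPKM) over the 10 libraries. The fatty acid carrier *Fabp4* followed at 1564 RPKM and fatty acid synthase, *Fasn*, at 1219.8 RPKM. Next came the droplet protein *Cidec* (623 RPKM), the lipogenic protein *Thrsp* (583 RPKM), the fatty acid translocase *Cd36* (579 RPKM), *Pck1* (530.0 RPKM) and the triglyceride lipase *Pnpla2* (454 RPKM). The ranges of these neighbours overlap, and that of *Thrsp*, 147 to 1133 RPKM, holds the means of the other 4. The order depends on the length used: *Lpl* (382 RPKM) has 10478 annotated exon bases, while its longest transcript has 4115. At the other end stood *Fads2*, the desaturase that acts on polyunsaturated fatty acids, at 11.7 RPKM, and *Abhd5*, the coactivator of the triglyceride lipase, at 18.5 RPKM. *Scd1* held more reads than any other gene in 7 of the 10 libraries, and ranked 2 in HFA replicates 2 and 4 and 3 in HFA replicate 5.

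**Figure D1:**
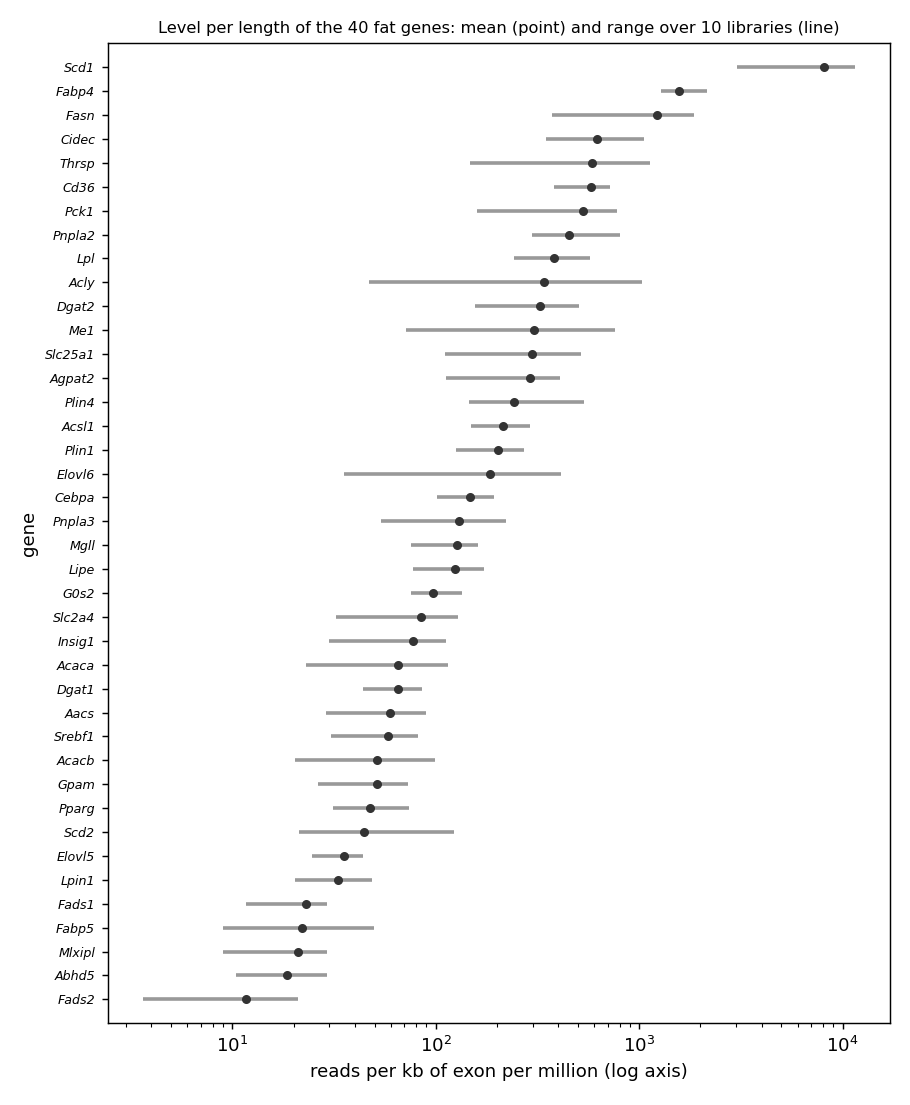
Mean level per length of each of the 40 genes over the 10 libraries (point) with the range over libraries (line), in RPKM on a log axis. *Scd1* is highest at 8091 RPKM and *Fads2* lowest at 11.7 RPKM, and the synthesis gene *Acly* has the widest range on this axis.

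All 40 genes together took 8.92%, 8.78%, 12.3%, 10.9% and 9.62% of the counted reads in CFA replicates 1 to 5. In HFA replicates 1 to 5 they took 8.89%, 5.89%, 9.13%, 9.19% and 4.64%. The groups overlap, with HFA replicates 2 and 5 below every CFA library and CFA replicate 3 above every other. *Scd1* alone took 1.62% of the reads in HFA replicate 5 and 5.83% in CFA replicate 3.

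The members differed widely in how far they varied from mouse to mouse. The SD of log2 CPM over the 10 libraries had a median of 0.78 among the synthesis genes and 0.64 among those of elongation and desaturation, against 0.39 over all genes tested. It was 0.40 among the lipolysis genes and 0.36 among those of uptake and binding, near the background. The ATP citrate lyase *Acly* ran over a 22.0-fold range, the elongase *Elovl6* over 11.6-fold, the malic enzyme *Me1* over 10.6-fold and *Thrsp* over 7.72-fold. At the narrow end, *Fabp4* ran over 1.70-fold, *Elovl5*, an elongase of the widely varying role, over 1.78-fold, the lipase inhibitor *G0s2* over 1.78-fold, *Cd36* over 1.88-fold and the adipocyte factor *Cebpa* over 1.90-fold.

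The same few libraries gave the extremes. CFA replicate 3 was the highest library for 6 of the 9 synthesis genes and 4 of the 6 genes of elongation and desaturation, while it was highest for 7.62% of all genes. It was also the lowest for 5 members, *Pck1*, *Plin4*, *Cidec*, *Pnpla2* and *Fabp4*. HFA replicate 2 was lowest for 5 synthesis genes and 3 of elongation and desaturation, against 8.70% of all genes, and had the highest *Plin4*. HFA replicate 5 was lowest for 19 of the 40 members and highest for none, beside the 28.3% and 31.8% of all genes given above.

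**Figure D2:**
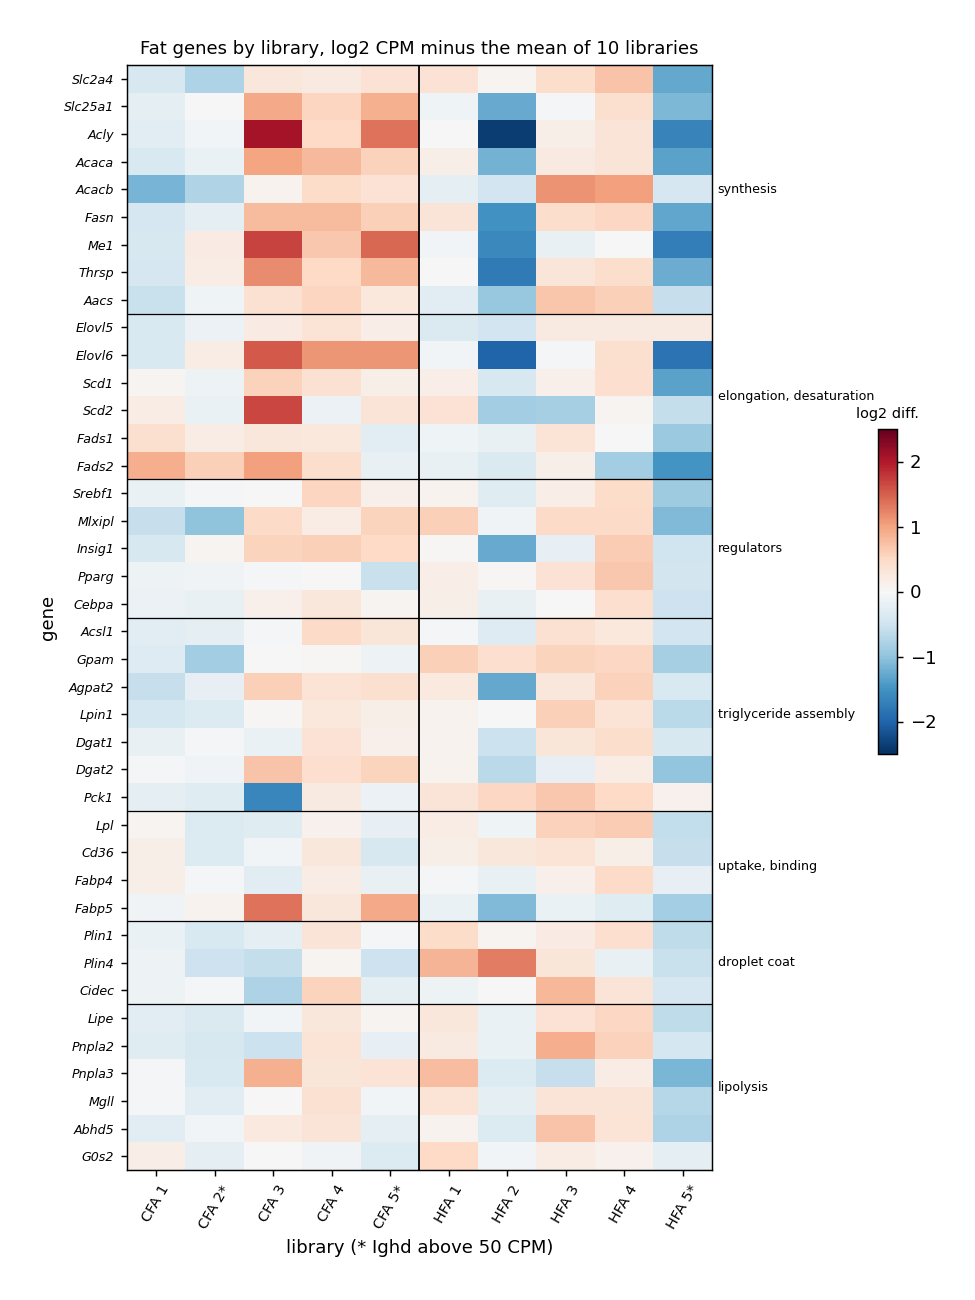
Heat map of the 40 genes (rows, grouped by role) in the 10 libraries (columns), as log2 CPM minus the gene's mean over the 10 libraries. An asterisk marks the 3 libraries of *Ighd* above 50 CPM. The synthesis rows are darkest red in CFA replicate 3 and darkest blue in HFA replicates 2 and 5, and the lipolysis rows are paler.

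The promoters of 4 members whose values followed different patterns are shown. *Acly* and *Fasn* were lowest in HFA replicates 2 and 5, *Fads2* was the one member past an adjusted threshold without the 3 libraries of high *Ighd*, and *Pck1* was lowest where most synthesis genes were highest. Each is the 250 bases before a transcription start in RefSeq, on build GRCm38.p6, with capitals for the motifs searched on both strands: the E-box with the letters CACGTG, the CCAAT box, the GC box with the letters GGGCGG, the core of the cyclic AMP response element with the letters ACGTCA, and a sterol response element with the letters TCACNCCAC.
Fasn, chr11:120824548-120824797, minus strand: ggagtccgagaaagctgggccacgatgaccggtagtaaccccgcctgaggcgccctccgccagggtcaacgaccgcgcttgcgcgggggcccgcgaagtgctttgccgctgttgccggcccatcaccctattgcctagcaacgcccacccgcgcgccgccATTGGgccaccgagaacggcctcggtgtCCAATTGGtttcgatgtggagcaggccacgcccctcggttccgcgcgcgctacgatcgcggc
Acly, chr11:100528001-100528250, minus strand: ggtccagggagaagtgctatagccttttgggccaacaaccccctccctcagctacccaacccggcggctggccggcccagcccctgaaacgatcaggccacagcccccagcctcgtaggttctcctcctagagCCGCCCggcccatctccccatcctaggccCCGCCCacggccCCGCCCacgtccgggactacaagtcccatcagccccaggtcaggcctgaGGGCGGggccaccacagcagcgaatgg
Fads2, chr19:10101504-10101753, minus strand: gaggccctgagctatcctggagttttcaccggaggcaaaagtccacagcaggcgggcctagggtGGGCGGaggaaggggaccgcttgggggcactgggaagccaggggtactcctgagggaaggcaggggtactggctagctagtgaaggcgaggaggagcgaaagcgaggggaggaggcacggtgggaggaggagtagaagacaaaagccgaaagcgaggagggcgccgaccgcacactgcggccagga
Pck1, chr2:173152823-173153072, plus strand: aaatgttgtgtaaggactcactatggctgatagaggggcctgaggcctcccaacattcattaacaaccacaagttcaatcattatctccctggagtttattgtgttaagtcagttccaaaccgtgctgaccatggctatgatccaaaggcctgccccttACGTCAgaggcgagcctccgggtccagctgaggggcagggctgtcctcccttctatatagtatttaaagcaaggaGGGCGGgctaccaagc
The *Fasn* window holds CCAAT in either orientation 3 times, of which 2 overlap. The *Acly* window holds the GC box 4 times, *Fads2* has 1 GC box, and *Pck1*, a gene that glucagon and fasting raise through cyclic AMP, has 1 ACGTCA and 1 GC box. RefSeq windows were at hand for 31 of the 40 members, 42 windows in all. CCAAT lay in 17 of the 42 (40.48%) against 33.85% of all 32851 windows, the GC box in 21 of the 42 against 32.74%, and ACGTCA in 4 (9.52%) against 6.47%. The E-box lay in 6 (14.29%) against 6.02%, and TCACNCCAC in 2, those of *Acsl1* and *Mlxipl*, (4.76%) against 1.05%. A match is a run of letters and not a binding site. In GENCODE M21 the *Fads2* gene reaches base 10101746 and the *Pck1* gene starts at base 173153048. Most of the *Fads2* window and the last bases of the *Pck1* window thus lie inside the gene by that annotation.

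Whether the diets differed was tested by edgeR's quasi-likelihood test, with the log2 fold change taken as HFA minus CFA and p-values adjusted over all 15610 genes. None of the 40 members passed an adjusted p of 0.05, against 0% of all genes, and none did by DESeq2 or the likelihood ratio test, which called 0.384% and 0.211% of all genes. The smallest adjusted p of a member was 0.648. At an unadjusted p below 0.05, 5 members were lower in HFA (12.5%, against 3.49% of all genes), namely *Me1*, *Elovl6*, *Fads2*, *Dgat2* and *Fabp5*. Another 2 were higher, *Pck1* and *Plin4* (5%, against 3.87%). The balance of direction turned with the processing: 0 were higher and 7 lower under upper-quartile scaling (7% of all genes in either direction), 0 and 8 with no filter on low counts (5.49%), 8 and 2 with limma voom's quality weights (30.1%), and 5 and 4 without HFA replicate 5 (25.8%). With the adipocyte markers as a covariate 4 were higher and 9 lower (15.5%). With 1 library left out, 0 to 5 members were higher and 3 to 8 lower (3.504% to 25.8% of all genes in either direction). The 7 named members became 3 in number without CFA replicate 3, CFA replicate 5 or HFA replicate 2, and 4 without HFA replicate 3 (6.013% of all genes). A count of 3 of 40 (7.5%) lay above the share of all genes without CFA replicate 3 (3.504%) or HFA replicate 2 (6.522%). It lay below that share without CFA replicate 5 (11.61%). The median log2 fold change was −0.05 over the members, 22 lower and 18 higher, and 0.06 over all genes. The sign of the members' median turned, to 0.011 without the 3 libraries of high *Ighd* and 0.048 with the quality weights, and it ran from −0.16 without CFA replicate 1 to 0.051 without HFA replicate 2. *Fabp5* was the one member whose 5 HFA values all lay below the 5 CFA values (2.5%, against 0.243% of all genes), and no member lay wholly above (0%, against 0.75%).

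In the 7 libraries of *Ighd* at most 50 CPM (3 CFA and 4 HFA), 1 member passed the adjusted threshold, *Fads2* (2.5%, against 2.98% of all genes). At an unadjusted p below 0.05, 3 members were lower (7.5%, against 11.5%) and 4 higher (10%, against 11.9%), shares below those of all genes. *Fads2* and *Fabp5* lay wholly below (5%, against 10.6%), and *Pparg*, *Gpam* and *Pck1* wholly above (7.5%, against 9.76%). With limma voom's quality weights on all 10 libraries, *Fads2*, *Plin4* and *Gpam* passed (7.5%, against 6.64%).

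The sample titles carry a digit, 2 or 3, that neither the labels nor the methods explain, and the members' differences were not alike within its values. Among the libraries of digit 2 (CFA replicates 1 and 2, HFA replicates 1 to 3), the median log2 fold change of the 40 was 0.31, with 12 lower, and 9 members were higher and 1 lower at an unadjusted p below 0.05 (30.7% of all genes), with 4 past the adjusted threshold (9.12%). Among those of digit 3 (CFA replicates 3 to 5, HFA replicates 4 and 5), it was −0.34, with 33 lower, and 0 members were higher and 3 lower at an unadjusted p below 0.05 (3.07% of all genes). The medians over all genes were 0.02 and 0.02. Of the 2 HFA libraries of digit 3, replicate 5 is of high *Ighd* and was lowest for 19 of the 40 members (28.3% of all genes). Digit 3 also holds CFA replicate 3, highest for 14 members (7.62%), while digit 2 holds HFA replicate 2, lowest for 12 (8.70%). The sign was the same within both digits for 17 members, 11 of them lower. With the digit as a term in the fit to all 10 libraries, 0 members were higher and 2 lower at an unadjusted p below 0.05, *Fads2* and *Fabp5* (9.95% of all genes), and with blocks made from the last title digits 0 were higher and 7 lower (6.88%). Whether the diet difference differs between the digits was not tested.

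**Figure D3:**
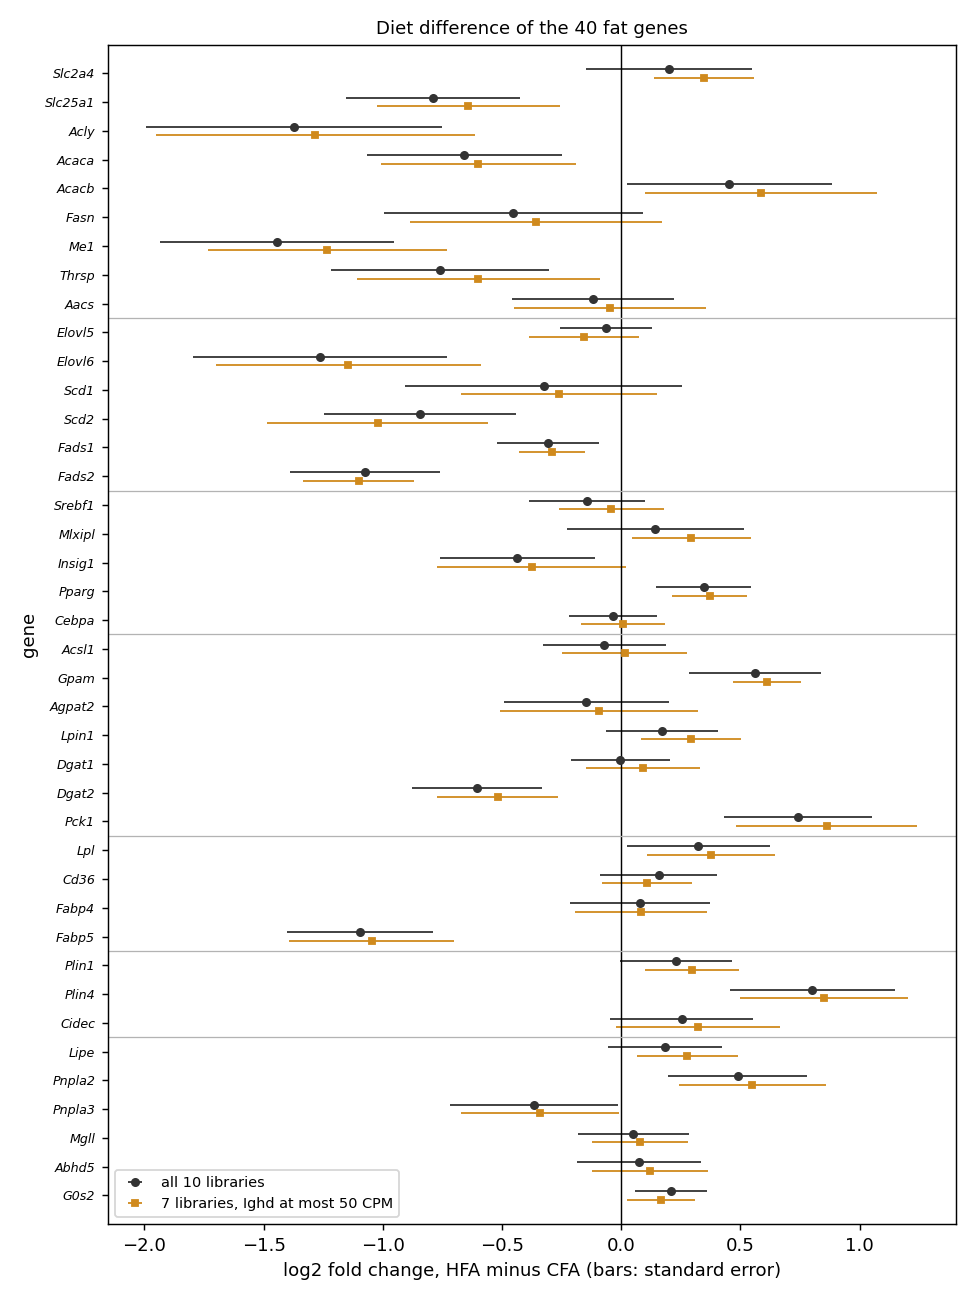
Log2 fold change of HFA over CFA (horizontal axis) with its standard error for the 40 genes, in all 10 libraries (circles) and in the 7 libraries of *Ighd* at most 50 CPM (squares). The synthesis, elongation and desaturation genes lie mostly left of 0, from −1.44 for *Me1*, and the droplet genes right of 0, up to 0.80 for *Plin4*, and none passed the adjusted threshold in the 10 libraries.

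Synthesis genes were on the whole lower in HFA: 7 of 9 had a negative log2 fold change, with a median of −0.66 in the 10 libraries and −0.60 in the 7, and 0 of 9 passed the adjusted threshold. Within digit 2 the median was 0.15 and within digit 3 it was −1.05. *Acly*, which splits citrate into the acetyl-CoA that fatty acids are built from, read 1066, 1235, 5454, 1818 and 3332 CPM in CFA replicates 1 to 5 and 1282, 248, 1423, 1626 and 406 CPM in HFA replicates 1 to 5. CFA replicates 3 and 5 stood far above the rest and HFA replicates 2 and 5 far below, while the other 6 libraries lay between 1066 and 1818 CPM. The mean of CFA was 2581 ± 1838 CPM (SD, n = 5) and that of HFA 997 ± 626 CPM. The log2 fold change, given here and for the genes that follow with its standard error, was −1.37 ± 0.62 (adjusted p = 0.670). *Fasn*, which joins these units into palmitate, read 8777, 10032, 20411, 20290.0 and 17632 CPM in CFA and 14766, 4090.3, 15894, 16868 and 4773 CPM in HFA, in replicate order. Its low values fell in HFA replicates 2 and 5 again, the groups overlap, and the log2 fold change was −0.45 ± 0.54 (adjusted p = 0.860).

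*Me1*, which yields NADPH for the chain's growth, had the lowest log2 fold change of the members, −1.44 ± 0.49 (adjusted p = 0.655), and −1.23 ± 0.50 in the 7 libraries. It read 688, 1042, 2921, 1446 and 2478 CPM in CFA and 865, 297, 805, 909 and 276 CPM in HFA. Only CFA replicate 1 lay among the HFA values, but 23.1% of the 75-base stretches of its transcript also occur in other genes. *Acaca*, the carboxylase that makes malonyl-CoA for synthesis, ran from 391 to 1959 CPM, with a log2 fold change of −0.66 ± 0.41 (adjusted p = 0.726). For it too, 47.4% of the stretches recur, in the pseudogene *Gm5182*, so its count is uncertain. *Thrsp* ran from 321 CPM in HFA replicate 2 to 2479 CPM in CFA replicate 3 (log2 fold change −0.76 ± 0.46, adjusted p = 0.718). *Acacb*, the mitochondrial carboxylase whose malonyl-CoA restrains fatty acid oxidation, and the insulin-responsive glucose transporter *Slc2a4* were the 2 members of the role with a higher mean in HFA. The citrate carrier *Slc25a1* ran from 239 to 1117 CPM and *Aacs*, which activates ketone bodies for lipid synthesis, from 111 to 346 CPM.

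Within a library, the ratio of *Acaca* to *Acacb* (a pair chosen after the values were seen) was 1.38 to 2.06 on the log2 scale in CFA. In HFA it was 1.56 in replicate 1 and 0.26 to 0.47 in the other 4, so that 4 of the 5 HFA libraries lay below every CFA library.

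**Figure D4:**
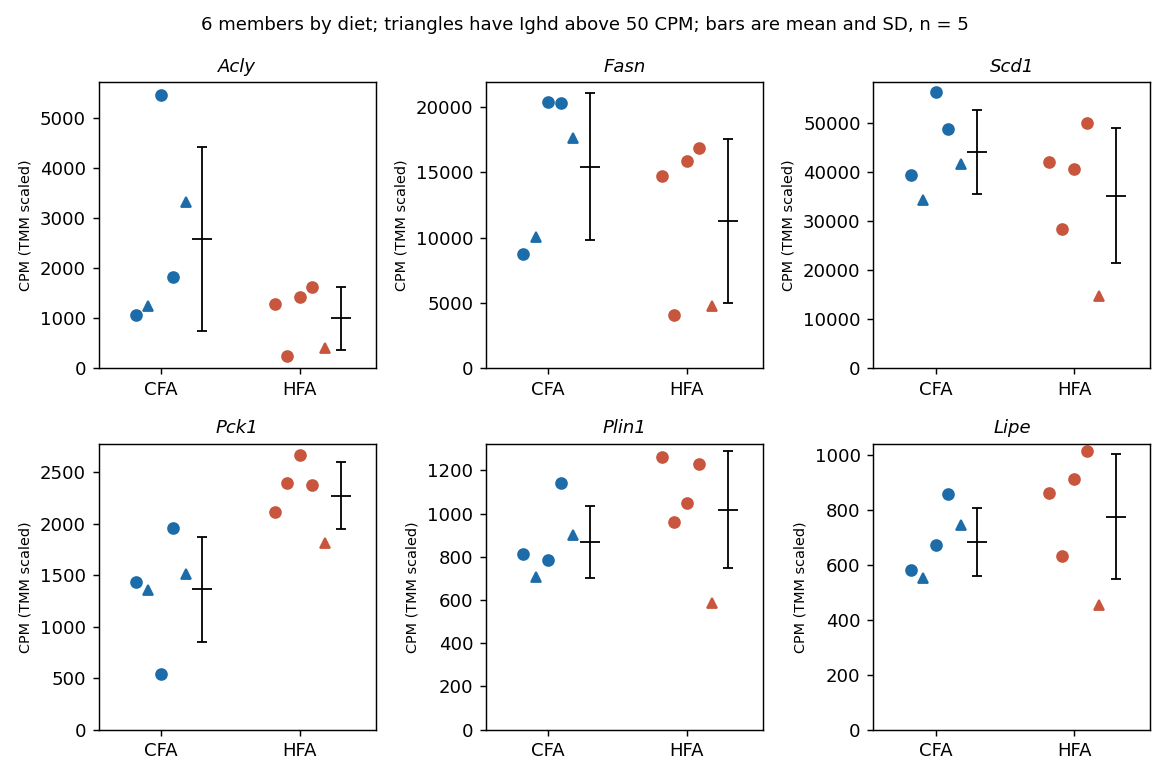
CPM of 6 members in each library by diet, with the mean and SD (n = 5) as a bar beside the points and triangles for libraries of *Ighd* above 50 CPM. *Acly*, *Fasn* and *Scd1* are low in HFA replicates 2 and 5, *Pck1* is low in CFA replicate 3, and for *Plin1* and *Lipe* the groups overlap over most of their range.

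All 6 genes of elongation and desaturation had a negative log2 fold change, with a median of −0.58 in the 10 libraries and −0.66 in the 7. Within both digits the median was below 0, −0.28 and −0.91. *Fads2*, the first desaturase on the route to long polyunsaturated fatty acids, read 64.1, 51.3, 69.4, 46.5 and 30.0 CPM in CFA and 29.8, 26.4, 37.5, 18.7 and 12.0 CPM in HFA, in replicate order. CFA replicate 5 was the one CFA library inside the HFA range, and HFA replicate 5 was lowest. The log2 fold change was −1.08 ± 0.31 (adjusted p = 0.648) in all libraries. In the 7 libraries *Fads2* fell by 1.10 ± 0.23 on the log2 scale (adjusted p = 0.0470), with every HFA library below every CFA library. Once HFA replicate 2 was left out as well, *Fads2* was at −1.08 (adjusted p = 0.0761). There 0 members passed, and 0.0128% of all genes did, against 2.98% of all genes in the 7 libraries. *Fads2* was at −0.87 within digit 2 (adjusted p = 0.0422) and at −1.75 within digit 3 (adjusted p = 0.993). In the same fit to the 7 libraries, epithelial markers passed the adjusted threshold too. They were 3 of 5 basal (60%) and 2 of 8 luminal ones (25%), against 2.98% of all genes. *Krt5*, *Krt14* and *Trp63* of the basal cells had log2 fold changes of −1.03, −1.03 and −0.84, and *Epcam* and *Cldn7* of the luminal cells had −0.83 and −1.02 (adjusted p from 0.0428 to 0.0480). The other luminal markers were split, with *Krt18*, *Krt19* and *Prlr* at 0.14, 0.10 and 0.39. *Krt8* was at −0.004, and *Cldn3* and *Elf5* were at −0.63 and −0.79. The part of epithelial cells in the *Fads2* difference was not tested.

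*Elovl6*, which lengthens palmitate to stearate, read 709, 1043, 2648, 1964 and 1977 CPM in CFA and 876, 228, 903, 1214 and 254 CPM in HFA. HFA replicates 2 and 5 stood far below the rest, CFA replicates 1 and 2 lay below the highest HFA library, and the log2 fold change was −1.26 ± 0.53 (adjusted p = 0.661). *Scd1*, which turns stearate into oleate, read 39304, 34242, 56211, 48715 and 41629.8 CPM in CFA and 41972, 28382, 40704, 49896 and 14771 CPM in HFA. Only HFA replicates 2 and 5 lay below the CFA range, and the log2 fold change was −0.32 ± 0.58 (adjusted p = 0.908). Its relative *Scd2* lay between 116 and 271 CPM in 9 libraries and at 669 CPM in CFA replicate 3. The log2 fold change of *Scd2* was −0.84 ± 0.40 (adjusted p = 0.678), and it was −0.40 without CFA replicate 3. *Fads1*, the second desaturase of the same route as *Fads2*, ran from 56.5 to 141 CPM, and *Elovl5*, which elongates its substrates, from 86.9 to 155 CPM.

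The transcription factors that govern these genes showed no common direction: *Srebf1* and *Cebpa* had negative log2 fold changes and *Mlxipl* and *Pparg* positive ones. With *Insig1*, a regulator of such factors, which was lower, the median of the role was −0.03. The SD of log2 CPM was 0.40 for *Srebf1*, 0.36 for *Pparg* and 0.27 for *Cebpa*, but 0.66 for *Mlxipl* and 0.61 for *Insig1*. *Srebf1*, the factor that insulin raises to drive synthesis, read 284, 308, 319.8, 463 and 345 CPM in CFA and 337, 256, 358, 434 and 172 CPM in HFA. HFA replicates 2 and 5 were again the lowest, and the log2 fold change was −0.14 ± 0.24 (adjusted p = 0.907), a sign that turned with limma voom's quality weights. *Pparg*, the master factor of adipocytes, read 124, 129, 134, 138 and 92.5 CPM in CFA and 154, 139, 175, 218 and 99.8 CPM in HFA. CFA replicate 5 and HFA replicate 5, both of high *Ighd*, were the lowest of their groups. Its log2 fold change was 0.35 ± 0.20 (adjusted p = 0.707), and without the 3 libraries it was 0.37 ± 0.16 (adjusted p = 0.198) with the 4 HFA values above the 3 CFA values. *Mlxipl*, the glucose-sensing factor ChREBP, ran from 49.6 to 162 CPM, *Insig1*, which holds the sterol-regulated factors in the endoplasmic reticulum, from 92.5 to 346 CPM, and *Cebpa* from 269 to 511 CPM.

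Triglyceride assembly was split, with 3 of 7 genes higher, 4 lower and a median of −0.00436. *Pck1*, which in adipocytes supplies the glycerol backbone from pyruvate in fasting, read 1435, 1360.0, 545, 1956 and 1512 CPM in CFA and 2114, 2395, 2669.7, 2371 and 1817 CPM in HFA. Its lowest value by far was in CFA replicate 3, and CFA replicate 4 was the one CFA library inside the HFA range. The mean of CFA was 1361 ± 512 CPM (SD, n = 5) and that of HFA 2273 ± 322 CPM. Its log2 fold change was 0.74 ± 0.31 (adjusted p = 0.661), with a positive sign within both digits (0.80 and 0.57). *Dgat2*, which adds the last fatty acid, read 937, 901, 1563, 1270.3 and 1408 CPM in CFA and 1017, 594, 826, 1083 and 478 CPM in HFA. The groups overlap, in that HFA replicates 1 and 4 lay above CFA replicates 1 and 2. The log2 fold change was −0.60 ± 0.27 (adjusted p = 0.670). Its counterpart *Dgat1*, of unrelated sequence, ran from 134 to 263 CPM. The log2 ratio of *Dgat2* to *Dgat1* (a pair chosen after the values were seen) was 2.26 to 3.18 in CFA and 1.70 to 2.30 in HFA, which overlap in 1 library of each group.

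The acyltransferase *Gpam*, which starts glycerolipid assembly, read 256, 175, 324, 329 and 296 CPM in CFA and 486, 430.2, 475, 462 and 180.4 CPM in HFA. HFA replicate 5 was far below the other 4 HFA libraries, all of which lay above every CFA library. *Acsl1*, which activates fatty acids with coenzyme A, ran from 1559 to 3034 CPM, the next acyltransferase *Agpat2* from 239 to 871 CPM, and the phosphatidate phosphatase *Lpin1* from 196 to 469.7 CPM. Between the ends of the route, *Acly* over *Pck1* ran on the log2 scale from −3.27 in HFA replicate 2 to 3.32 in CFA replicate 3.

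Of the 4 uptake genes, 3 had a positive log2 fold change and *Fabp5* a negative one, and the median was 0.12. *Lpl*, the lipase that frees fatty acids from lipoproteins at the vessel wall, ran from 2533 CPM in HFA replicate 5 to 6036 CPM in HFA replicate 4, so HFA spanned the whole CFA range (log2 fold change 0.32 ± 0.30, adjusted p = 0.817). *Cd36* ran from 1373 to 2584 CPM (log2 fold change 0.16 ± 0.24, adjusted p = 0.897), and *Fabp4*, a carrier found in fat cells and macrophages among others, from 5713 to 9709 CPM. *Fabp5*, a carrier shared with epithelia and macrophages, read 65.4, 74.0, 178, 84.3 and 134 CPM in CFA and 61.6, 32.3, 62.2, 56.2 and 38.7 CPM in HFA. The highest HFA value lay just under the lowest CFA value. The log2 fold change was −1.10 ± 0.31 (adjusted p = 0.648), and −1.05 ± 0.35 in the 7 libraries (adjusted p = 0.120). It was −0.40 within digit 2 and −1.56 within digit 3. Luminal epithelial markers had negative log2 fold changes for 7 of 8 genes and basal ones for 5 of 5, none past the adjusted threshold in the 10 libraries, with summed levels of 519 to 2230.2 CPM (luminal) and 250.4 to 879 CPM (basal) in CFA. In HFA these sums were 366 to 1937 and 97.8 to 647 CPM. Macrophage markers had positive log2 fold changes for 5 of 5 (median 0.55, none at an unadjusted p below 0.05), with sums of 182 to 284 CPM in CFA and 77.6 to 646 CPM in HFA. The part of either cell type in the *Fabp5* difference was not tested.

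The 3 droplet coat genes had positive log2 fold changes, with a median of 0.25 in the 10 libraries and 0.32 in the 7, and 0.55 and −0.13 within digits 2 and 3. *Plin4*, a coat protein of small droplets, read 1164, 881, 843, 1336 and 879.5 CPM in CFA and 2283, 3078, 1561, 1119 and 857 CPM in HFA. HFA replicates 1 and 2 stood far above the rest, and HFA replicates 4 and 5 lay within the CFA range. The log2 fold change was 0.80 ± 0.35 (adjusted p = 0.670), and limma voom's quality weights gave 0.94 (adjusted p = 0.0443). *Plin1*, which guards the droplet of white adipocytes and lets lipases in when phosphorylated, ran from 587 to 1260.3 CPM, both in HFA (log2 fold change 0.23 ± 0.23, adjusted p = 0.838). *Cidec*, which fuses droplets into one, ran from 648 to 1968 CPM (log2 fold change 0.25 ± 0.30, adjusted p = 0.858).

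Of the 6 lipolysis genes, 5 had a higher mean in HFA, the median log2 fold change was 0.13, and none had an unadjusted p below 0.05. *Pnpla2*, the lipase ATGL that takes the first fatty acid off triglyceride, read 1054, 978, 899, 1648 and 1125 CPM in CFA and 1514, 1159, 2424, 1943 and 959 CPM in HFA. The groups overlap, with HFA replicate 3 highest. Its log2 fold change was 0.49 ± 0.29 (adjusted p = 0.714). *Lipe*, the hormone-sensitive lipase that acts on diglyceride, read 583, 554, 672, 861 and 747 CPM in CFA and 864, 634, 914, 1014 and 454 CPM in HFA. The extremes were both HFA libraries, and the log2 fold change was 0.18 ± 0.24 (adjusted p = 0.868). *G0s2*, the inhibitor of *Pnpla2*, ran from 65.5 to 117 CPM (log2 fold change 0.21 ± 0.15, adjusted p = 0.773). The monoglyceride lipase *Mgll* ran from 383 to 822 CPM, *Abhd5* from 62.0 to 173 CPM, and *Pnpla3*, a lipogenic relative of *Pnpla2* that was the one lower member of the role, from 83.4 to 343 CPM. *Abhd5* shares 28.4% of its 75-base stretches with *A730085K08Rik*, and 15.6% of the exon bases of *Lipe* lie under an antisense gene, which the library kit cannot tell apart by strand.

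Set against the 10 adipocyte markers of the same library, 1 role did not overlap between the diets, that of elongation and desaturation. It did not overlap without the markers either, since its mean log2 CPM was 8.68 to 9.47 in CFA and 7.59 to 8.63 in HFA. Single genes lay wholly below in HFA in 0.243% of all genes, and the share of other gene sets was not computed. The mean log2 CPM of the elongation and desaturation genes minus that of the markers was 0.01, 0.07, 0.81, −0.05 and 0.27 in CFA replicates 1 to 5. It was −0.42, −0.91, −0.28, −0.40 and −0.37 in HFA replicates 1 to 5, all below the CFA values. For the synthesis genes the difference ran over 0.54 to 2.01 in CFA and −0.29 to 1.21 in HFA, which overlap. For the droplet coat it was 0.90 to 1.36 in CFA and 1.24 to 1.76 in HFA, and for lipolysis −0.60 to −0.27 and −0.70 to −0.25, and both overlap. The markers themselves had means of 8.71 ± 0.19 in CFA and 8.72 ± 0.43 in HFA (log2 CPM, SD, n = 5). No test was made on these scores, since the members were chosen with results known.

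**Figure D5:**
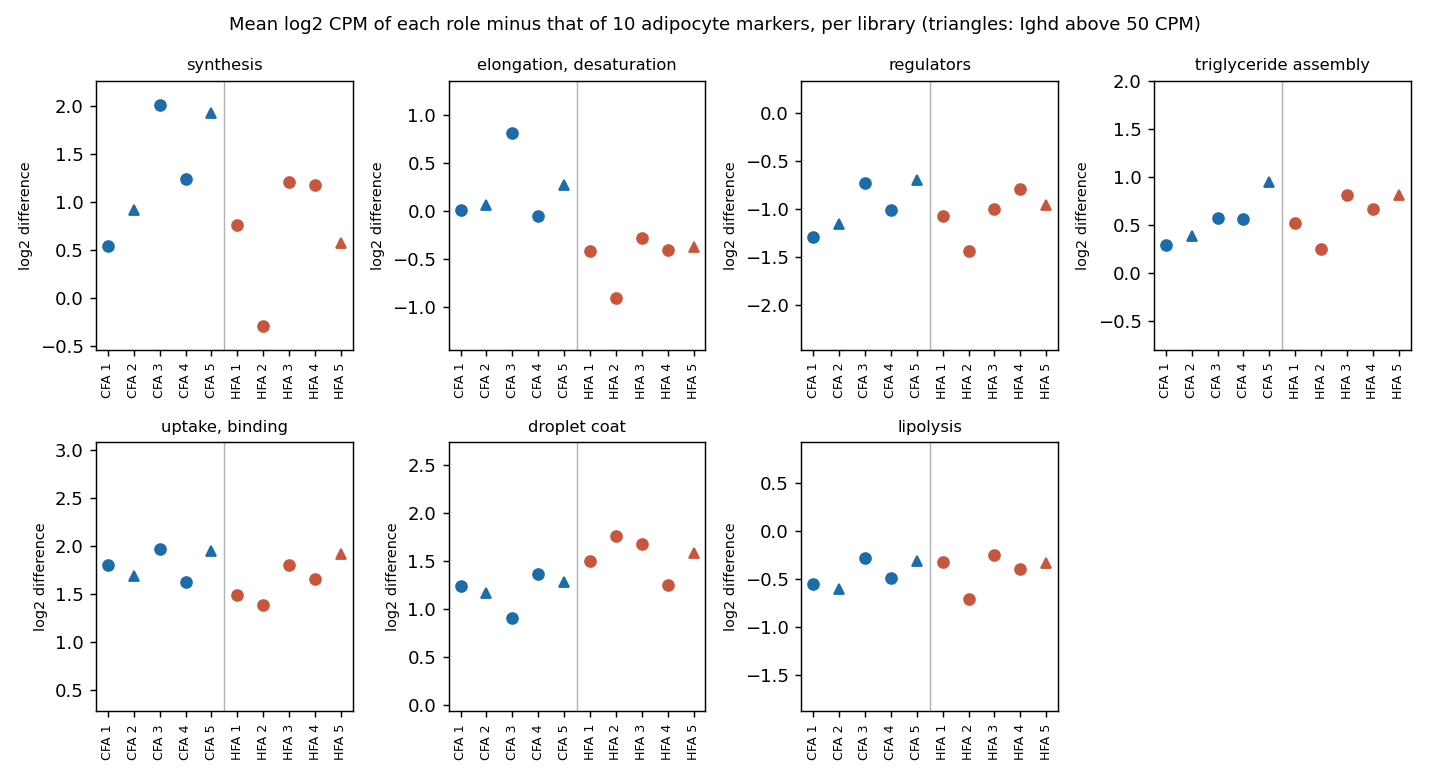
Mean log2 CPM of the genes of each role minus the mean of 10 adipocyte markers (vertical axis, same span in every panel) in each library (CFA blue, HFA red, triangles for *Ighd* above 50 CPM). The HFA points lie below all CFA points for elongation and desaturation, HFA replicate 2 is lowest for synthesis at −0.29, and the other roles overlap.

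Of 62 other genes of fat metabolism, 61 were tested and none passed the adjusted threshold. At an unadjusted p below 0.05, 6 were higher (9.84%, against 3.87% of all genes) and 1 lower (1.64%, against 3.49%). In the 7 libraries 10 were higher (16.4%, against 11.9%) and 2 lower (3.28%, against 11.5%). There 1 passed the adjusted threshold, *Fitm1* (1.64%, against 2.98%). In the 10 libraries the lower gene was *Acss2*, which makes acetyl-CoA from acetate. It read 271, 320.0, 936, 375 and 610.1 CPM in CFA and 318, 85.1, 241, 309 and 80.6 CPM in HFA. Like *Acly*, it was highest in CFA replicate 3 and lowest in HFA replicates 2 and 5. Among the higher ones was *Plin5*, the droplet protein of oxidative tissues, at 12.2 to 29.4 CPM in CFA and 34.8 to 63.5 CPM in HFA. Its groups did not overlap, where 0.75% of all genes lay wholly above in HFA (log2 fold change 1.34, adjusted p = 0.577). *Ces1d*, a lipase of adipocytes, had a log2 fold change of 0.85 (adjusted p = 0.655). The rest of the higher ones were *Elovl3*, *Gk*, *Ces1f* and *Nr1h2*, with log2 fold changes of 2.31, 1.33, 0.63 and 0.26. Of 20 genes of cholesterol synthesis, 15 were lower, 3 of them at an unadjusted p below 0.05 (15%, against 3.49% of all genes), with a median of −0.26.

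Markers of brown fat and muscle stand beside these values, none past the adjusted threshold in the 10 or the 7 libraries. All 7 brown adipocyte markers tested had positive log2 fold changes (median 1.15). Of them, 3 had an unadjusted p below 0.05 in the 10 libraries (42.9%, against 3.87% of all genes higher) and 4 in the 7 (57.1%, against 11.9%). The sum over the 8 listed was 101 to 712 CPM in CFA and 216 to 2025 CPM in HFA. *Ucp1*, the uncoupling protein that defines them, was at 1.51 CPM in CFA replicate 1 and 5.35 CPM in HFA replicate 2 and at 1031 CPM in HFA replicate 4, and *Cpn2* was at 0 in CFA replicates 1 and 2. Skeletal muscle markers also had positive log2 fold changes in 8 of 8 genes (median 0.69). In the 10 libraries 0 had an unadjusted p below 0.05 (0%, against 3.87% of all genes higher), and in the 7 libraries 8 did (100%, against 11.9%). Their sums were 8571 to 51576 CPM in CFA, 52874 to 68275 CPM in 4 HFA libraries and 846 CPM in HFA replicate 5. Muscle and brown fat express several members, among them *Lpl*, *Cd36*, *Slc2a4*, *Acacb*, *Pnpla2* and *Plin4*, and the part of these cells in their values was not tested.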

How the data were processed

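Total RNA of 10 mammary fat pads, 1 library per mouse, was prepared with a kit that does not mark strand and sequenced as 75-base read pairs. Per the labels and the study's methods, the authors used TopHat 2.0.14 on Bowtie 2.2.5 for alignment to GRCm38 and deposited raw counts per Ensembl gene made with HTSeq 0.6.1, without normalization. The authors left out 1 HFA library for poor reverse reads and 1 library, of a group they do not name, as an outlier, which left 5 in each group. Their model held the cage, which the labels do not give. Reads with more than 1 alignment (28.8% to 33.9% of the counted lines) and lines that name no gene (3.43% to 5.47% without a feature) stayed out.

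Symbols came from GENCODE M21 (46488 of 46983 genes). In R 4.3.3 with edgeR 4.0.16, genes were kept by filterByExpr, libraries scaled by TMM, and HFA compared with CFA by the quasi-likelihood test, where p-values were adjusted after Benjamini and Hochberg over 15610 genes and called below 0.05. The standard error is the log2 fold change over the root of F. The common biological coefficient of variation was 0.409. CPM are after TMM scaling, log2 CPM carry a prior count of 2, and RPKM divide CPM by the length of all annotated exons in kb. The fit was tested on simulated counts. Alternatives were RLE and upper-quartile scaling, 2 other filters, DESeq2 1.42.0, the likelihood ratio test, limma 3.58.1 (voom with quality weights), a term for the title digit, blocks made from the last 3 title digits, the adipocyte markers as a covariate, no libraries of *Ighd* above 50 CPM, and each library left out. Added after the values were seen were the fits within each title digit and that without HFA replicate 2 and the 3 libraries.

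The members, their roles, the other lists and the tests were chosen with earlier results of these data known. Log2 fold changes are printed for 18 members listed as leading their role and for every member with an unadjusted p below 0.05, 22 in all. *Gpam*, *Acss2*, *Plin5*, *Ces1d*, *Ucp1* and the ratios were singled out after their values were seen. The 75-base stretches were taken from the longest transcript of each member and looked for in all other transcripts, and 28 of the 40 members share none. Promoters are RefSeq's, on GRCm38.p6.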

Additional observations from a re-analysis of the deposited data

Results flagged for a closer look

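In each diet group of 5, the highest and the lowest library of each member were set against the gap that 1 in 20 groups would show by chance. Of 80 groups, 5 passed, beside 4 that chance would give. *Scd2* was 669 CPM in CFA replicate 3, where the remaining CFA libraries had 189 to 262 CPM, and *Pck1* was 545 CPM in the same library, against 1360.0 to 1956 CPM. *Pparg* was 92.5 CPM in CFA replicate 5, against 124 to 138 CPM. In HFA replicate 5, *Gpam* was 180.4 CPM, where the remaining 4 had 430.2 to 486 CPM, and *Cd36* was 1373 CPM, against 2254 to 2584 CPM. CFA replicate 5 and HFA replicate 5 are among the libraries of high *Ighd*, and CFA replicate 3 is not.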

How the results depend on the processing

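The replicate numbers follow the order of the samples and pair none of them. A replicate block by the last digits of the titles, which the labels do not explain, gave 0 members past the adjusted threshold and 7 at an unadjusted p below 0.05 (6.88% of all genes), all lower, of which 4 (*Me1*, *Elovl6*, *Fads2* and *Fabp5*) were among the 7 without the block. CFA replicate 4 and HFA replicate 1 each stood alone in a block, so neither adds to the diet difference of that fit. The number of members past the adjusted threshold, 0 in all libraries, became 3 by limma voom with quality weights, 1 without the 3 libraries of *Ighd* above 50 CPM and 4 within title digit 2 alone (*Slc2a4*, *Fads2*, *Mlxipl* and *Gpam*), where 9.12% of all genes passed. It stayed at 0 with any 1 library left out, where at most 0.0381% of all genes passed. The 7 members at an unadjusted p below 0.05 became 2 with the title digit as a term (both lower, against 9.95% of all genes). They became 13 with the adipocyte markers as a covariate (15.5% of all genes) and 3 within title digit 3 alone (3.07%). With 1 library left out, their number ranged from 3 to 9. It was 3 without CFA replicate 3 (3.504% of all genes), CFA replicate 5 (11.61%) or HFA replicate 2 (6.522%), and 4 without HFA replicate 3 (6.013%). The median log2 fold change of the 40 was 0.021 with the title digit as a term and 0.022 with the block. Of 484 refits of the 22 genes with printed fold changes, 479 gave the same direction and call, and 3 passed the threshold (*Fads2* by voom at −1.01 and in the 7 libraries at −1.10, *Plin4* by voom at 0.94). In most of the settings no gene of any kind passed, so an unchanged call was close to given, and the refits share most of their libraries. The direction of *Srebf1* turned in 2, to 0.022 by voom and to 0.074 without the 3 libraries and HFA replicate 2, and with 1 library left out it ran from −0.29 to −0.01. The other 21 kept their direction in these refits, which do not include those within a title digit, and the cause of these shifts was not tested. With a common biological coefficient of variation of 0.409 and 5 libraries a group, the values of the synthesis genes, whose range reaches 22.0-fold, leave large standard errors.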
